A study of Homo sapiens with 2 samples.

Results

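The genes described here are 10 factors and targets of the YAP/TEAD pathway, namely YAP1, WWTR1, TEAD1, LATS1, LATS2, AMOTL2, PTPN14, ANKRD1, AXL and NT5E. They were chosen by symbol, from probe sets that the platform annotation pairs with exactly 1 gene symbol, and all 10 were found among 19775 genes measured this way. They had 29 of 41097 such probe sets. The brightest probe set by the mean over both arrays stood for its gene, and the other probe sets are given beside it. Expression was measured in HEC1A, an established cell line from a human endometrial adenocarcinoma. One culture overexpressed EMP2, a small tetraspan membrane protein, and the other carried a short hairpin RNA vector that knocks EMP2 down. Both were grown in McCoy's medium with serum and were otherwise untreated, and each was hybridized to 1 array. No unmodified HEC1A array was analysed here, and the labels do not give the vectors, the promoters that drive them or whether the cells were clones or pools. The comparison asks how the 2 engineered states differ, and overexpression and knockdown cannot be told apart as the source of a difference.

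YAP, the product of YAP1, and TAZ, the product of WWTR1, are transcriptional coactivators that carry no DNA-binding domain of their own. They reach DNA through the TEAD factors, and the LATS kinases of the Hippo pathway phosphorylate them so that they stay in the cytoplasm or are degraded. Angiomotins and the phosphatase PTPN14 bind YAP directly and hold it outside the nucleus. LATS2, AMOTL2 and PTPN14 are also targets of YAP, so part of the pathway's restraint is induced by its own output. In epithelial cells the pathway is controlled mainly after transcription, by cell density, matrix stiffness and adhesion, and mRNA levels do not report the location or phosphorylation of YAP and TAZ.

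TEAD factors bind the 6-base element GGAATG, or CATTCC on the other strand, and the sequences before the start sites of several targets show where these letters lie. The element was searched on both strands, in either reading, in RefSeq promoter windows of GRCh38.p14, each from 250 bases before to 50 bases after a start site. Windows were held for 9 of the 10 members, TEAD1 being the other, and for 10 of 16 further genes of a published YAP/TAZ target signature. The 250 bases upstream of the start are printed for ANKRD1 and AXL, both higher in overexpression and both with a match. They are printed for CCN2, the most widely used YAP target outside the member list, and for NT5E, which was higher without a match. Capitals mark each match, and each run reads 5′ to 3′ toward the start site.
ANKRD1, chr10:90921088-90921337, minus strand: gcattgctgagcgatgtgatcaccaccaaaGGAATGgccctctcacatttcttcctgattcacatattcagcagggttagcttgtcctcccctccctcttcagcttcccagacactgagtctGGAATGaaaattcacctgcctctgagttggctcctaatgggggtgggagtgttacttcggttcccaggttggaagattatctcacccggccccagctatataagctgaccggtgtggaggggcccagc
CCN2, chr6:131951373-131951622, minus strand: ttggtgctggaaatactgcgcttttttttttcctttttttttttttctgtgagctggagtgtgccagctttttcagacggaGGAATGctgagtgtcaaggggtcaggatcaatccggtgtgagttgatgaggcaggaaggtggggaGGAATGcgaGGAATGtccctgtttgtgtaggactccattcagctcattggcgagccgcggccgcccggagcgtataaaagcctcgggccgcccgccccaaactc
AXL, chr19:41226505-41226754, plus strand: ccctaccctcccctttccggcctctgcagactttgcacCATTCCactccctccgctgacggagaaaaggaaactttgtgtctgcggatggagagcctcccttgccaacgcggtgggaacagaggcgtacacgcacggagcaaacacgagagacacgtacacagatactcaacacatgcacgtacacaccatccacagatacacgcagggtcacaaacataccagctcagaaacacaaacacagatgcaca
NT5E, chr6:85449833-85450082, plus strand: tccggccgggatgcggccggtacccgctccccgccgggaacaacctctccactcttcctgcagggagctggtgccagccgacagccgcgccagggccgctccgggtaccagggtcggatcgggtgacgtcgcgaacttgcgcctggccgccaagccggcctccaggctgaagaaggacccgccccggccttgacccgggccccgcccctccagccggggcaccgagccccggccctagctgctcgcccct

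ANKRD1 held 2 matches, 220 and 128 bases before the start, and CCN2 held 3, at 169, 104 and 95 bases before it. AXL has 2 windows in RefSeq, and the match, 212 bases before the start, lay in the one printed. The other, chr19:41218973-41219272, belongs to a start further upstream and held none. The NT5E window held none of these letters, which says nothing of sites elsewhere. By gene, 6 of the 9 members had a match in at least 1 window, namely YAP1, LATS2, AMOTL2, PTPN14, ANKRD1 and AXL, and WWTR1, LATS1 and NT5E had none. By window, 6 of 13 held one, and 4 of 10 windows of the further signature genes did, against 14.0% of all 35116 windows. For genes bright enough to be compared the share was 10.8%, over 1 window per gene, so it is not a like measure for the members. AMOTL2 and AXL had 2 windows each and matched only in the one listed later. The 4 signature genes with a match were CCN2, FOXF2, NUAK2 and TGFB2. Of these only CCN2 was compared, since FOXF2 and TGFB2 were too dim and NUAK2 was not measured. A match is a description of the letters and was not tested for binding. Of the 6 members with a match 3 were at least 1.5-fold higher in overexpression (ANKRD1, AXL and LATS2). Of the 3 without a match 1 was (NT5E), and of all genes bright enough to be compared 4.97% were. The relation of matches to the differences was not tested.

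The deposited values are on a log2 scale, and every difference is overexpression minus knockdown. There was 1 array per group, so no difference has a replicate check or a test, and the number of arrays limits the precision. A gene was compared when its brighter value reached 6.40, the median of all single-symbol probe sets, and all 10 members did. Differences were read at 1.5-fold, which is 0.58 log2 units. The brightest bacterial control probe set, at 5.85, served as the background level, and a fold against a value below it is a lower bound. EMP2, the modified gene, read 12.25 on the overexpression array and 9.51 on the knockdown array with its brightest probe set, and 10.44 against 10.05, 9.67 against 9.43 and 5.93 against 5.93 on its others. The first probe set followed the labels, and the others were under 1.5-fold. Epithelial identity was present on both arrays. All 7 epithelial markers were above the background level, among them EPCAM at 13.13 and 13.12. Of 4 markers of Mullerian epithelium 2 were above it, PAX8 at 11.26 and 11.33 and ESR1 at 6.49 on both arrays, and SOX17 and EMX2 were not above it on either array. Of the epithelial markers, CDH1 was higher in overexpression, at 10.38 against 9.31, and KRT19 and KRT8 were lower, at 10.73 against 11.70 and 10.55 against 11.32. Above the background level were 3 of 5 endothelial, 2 of 4 leukocyte and 3 of 4 smooth muscle markers, and none of these differed by 1.5-fold. They were dim. VWF, CD3E and ITGAM did not reach 6.40 on either array, and the brightest was DES, at 7.20 and 7.30.

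The targets ANKRD1, NT5E and AXL and the kinase LATS2 were higher in the EMP2-overexpressing cells, the coactivators YAP1 and WWTR1 were higher by less than 1.5-fold on their brightest probe sets, and TEAD1, LATS1, AMOTL2 and PTPN14 differed little. Of the 10 members, 4 were higher by 1.5-fold or more and none was lower by that much. Among the 12061 genes past the filter, 4.97% were higher and 4.15% lower by 1.5-fold or more. The members' median difference was 0.41 and that of all genes past the filter was 0.00. Above 0 were 8 of the 10 members, against 45.6% of all genes past the filter. The members were proposed with the results of these arrays known, so these counts describe them and do not support a shift of the pathway.

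**Figure D1:**
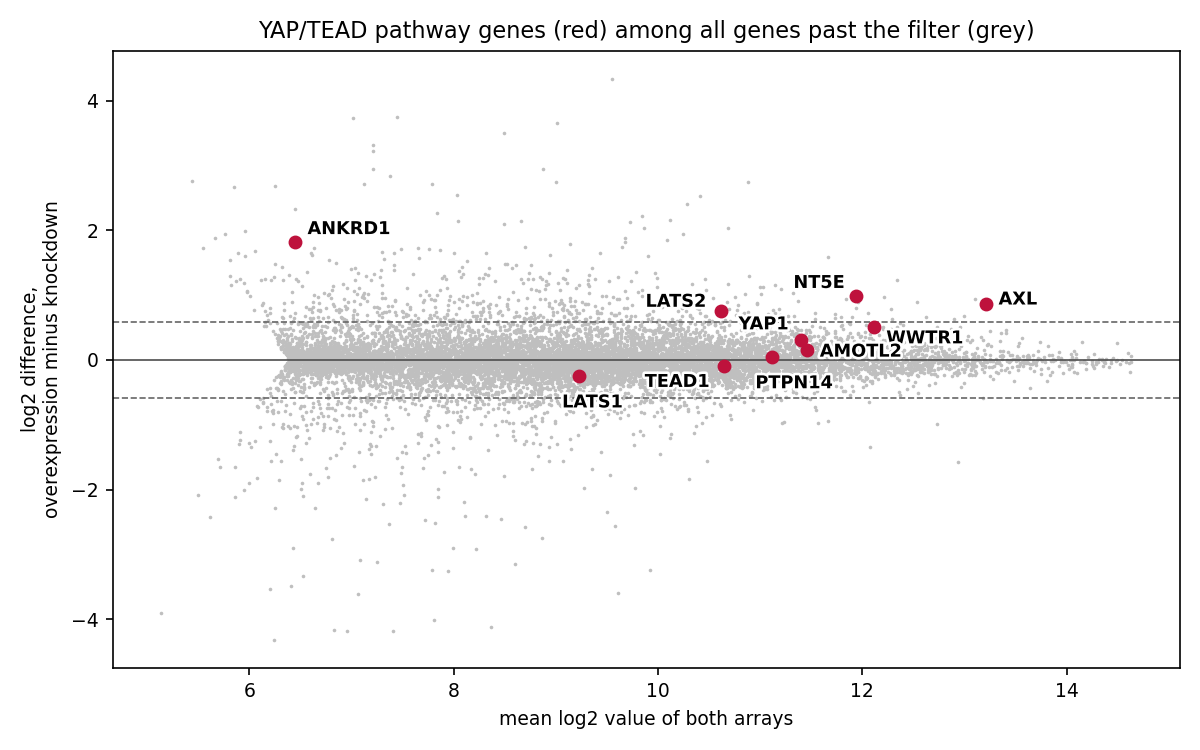
Difference between the arrays (vertical axis, log2 units, overexpression minus knockdown) against the mean log2 value of both arrays (horizontal axis) for the 12061 genes past the filter, each on its brightest probe set. Grey points are all genes, red points the 10 pathway members, and dashed lines mark 1.5-fold. ANKRD1, NT5E, AXL and LATS2 lie above the upper line, and the other 6 members lie between the lines.

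ANKRD1, a nuclear ankyrin-repeat protein induced by YAP and by mechanical load, had the largest difference of the members. Its only probe set read 7.35 in the overexpressing cells and 5.54 in the knockdown cells. The knockdown value lay below the background level, so ANKRD1 was at least 2.84-fold higher in overexpression. ANKRD1 passed the filter on the overexpression array alone.

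NT5E encodes CD73, the surface enzyme that turns AMP into adenosine. Its brightest probe set read 12.43 in the overexpressing cells and 11.45 in the knockdown cells, which is 1.98-fold or 0.98 log2 units, at rank 210 when all genes past the filter are ordered from the highest difference down. The other NT5E probe sets read 9.90 against 9.09, 9.22 against 8.43 and 7.80 against 7.28. All 4 were higher in overexpression, 3 of them by at least 1.5-fold, and their differences ran from 0.52 to 0.98. AXL, a receptor tyrosine kinase for GAS6, read 13.64 against 12.78 on its brightest probe set, a difference of 0.86 or 1.81-fold, at rank 289. Its second probe set read 9.57 against 8.79, a difference of 0.79. Both AXL probe sets are of the kind whose probes can match several transcripts, and no other kind was available for AXL.

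AXL and NT5E are bright genes, and large differences were rarer among bright genes. Of 1883 genes with a mean of at least 11, 2.28% were higher and 0.743% lower by 1.5-fold or more, and 90% of them differed by no more than 0.36. Of the 6 members this bright, NT5E and AXL were at least 1.5-fold higher and YAP1, WWTR1, AMOTL2 and PTPN14 were not. The level of 11 was set after the values were seen. NT5E and AXL are also expressed by stromal cells, whose markers were examined beside them. Of 8 fibroblast markers 5 exceeded the background level. The log2 of the summed signal of all 8 was 9.69 in overexpression and 9.55 in knockdown. COL1A1 read 8.51 and 8.48, COL1A2, COL3A1 and LUM were not above background on either array, and THY1, at 7.50 and 6.80, was the only fibroblast marker at least 1.5-fold apart. DCN, PDGFRA and PDGFRB, counted above background, did not reach the filter of 6.40 on either array. Both arrays were of cultures of the HEC1A line. The part of other cells in the AXL and NT5E differences was not tested.

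**Figure D2:**
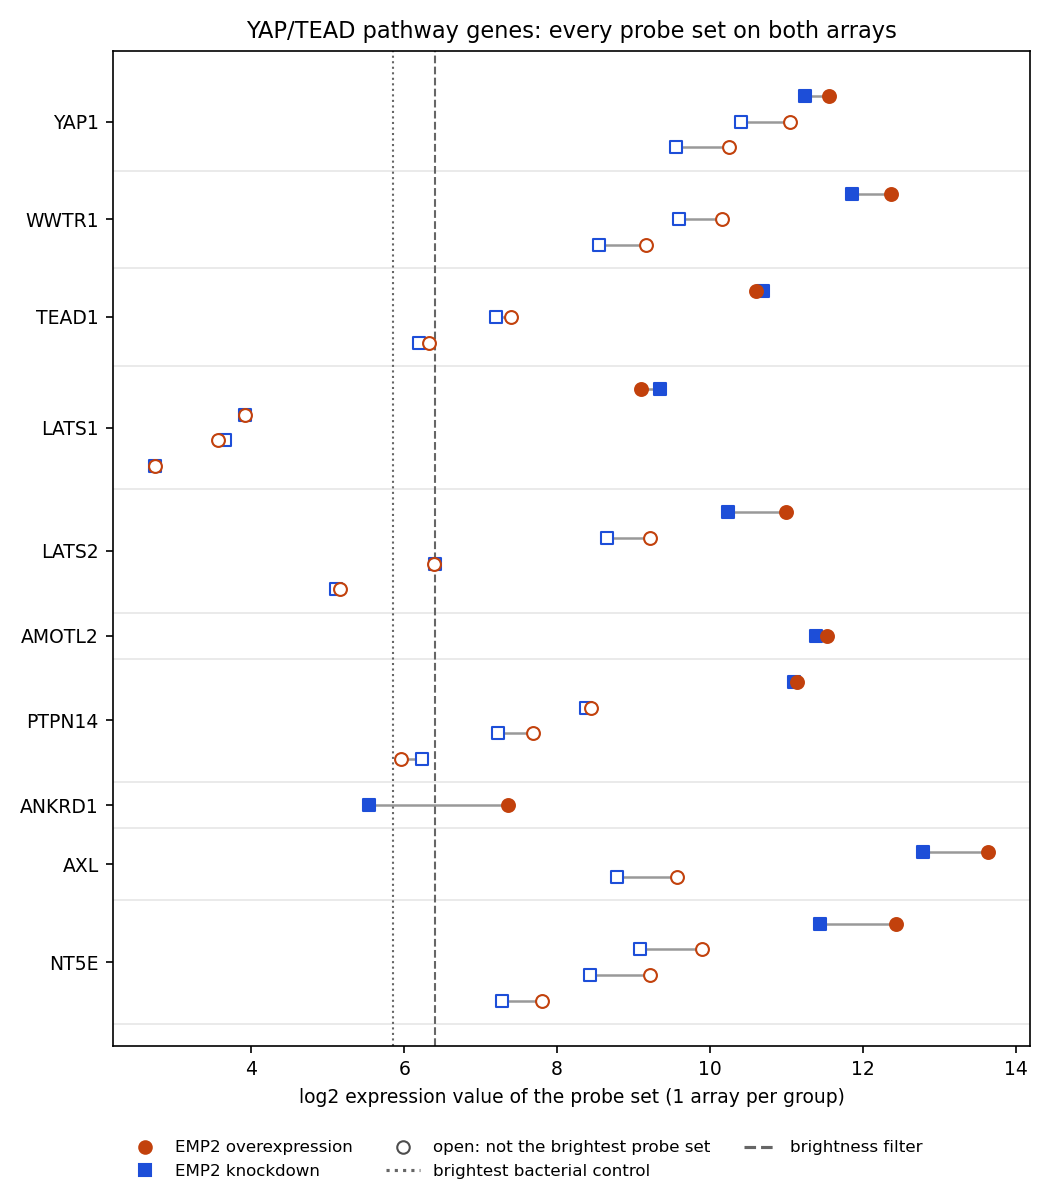
The log2 value (horizontal axis) of each of the 29 probe sets of the 10 members on both arrays, 1 array per group, with circles for EMP2 overexpression and squares for EMP2 knockdown. Filled symbols are the brightest probe set of each gene, the dotted line is the brightest bacterial control (5.85) and the dashed line is the brightness filter (6.40). The circles lie to the right of the squares in all probe sets of YAP1, WWTR1, AXL and NT5E, and ANKRD1 in knockdown lies left of the dotted line.

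YAP1 was higher in overexpression on all 3 of its probe sets, and the size depended on the probe set. The brightest read 11.56 against 11.24, a difference of 0.31 or 1.24-fold. The others read 11.04 against 10.40 and 10.25 against 9.55, with differences of 0.64 and 0.70, both past 1.5-fold. WWTR1 was more even across its 3 probe sets. The brightest read 12.37 against 11.86, a difference of 0.51 or 1.43-fold at rank 751, and the others read 10.16 against 9.59 and 9.16 against 8.55. The WWTR1 differences ran from 0.51 to 0.61, and 1 of the 3 passed 1.5-fold.

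TEAD1, the DNA-binding partner in the list, differed little. Its brightest probe set read 10.60 in the overexpressing cells and 10.69 in the knockdown cells, a difference of -0.09, and its second read 7.40 against 7.20, a difference of 0.20 in the other direction. The remaining one, at 6.32 and 6.19, did not pass the filter. The probe sets of TEAD1 did not share a direction.

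The LATS kinases differed in opposite directions on their brightest probe sets, LATS1 by less than 1.5-fold. LATS2 read 10.99 against 10.23 on its brightest probe set, a difference of 0.76 or 1.69-fold, at rank 361. Its second probe set read 9.22 against 8.65, a difference of 0.57 that fell just short of 1.5-fold. The dimmer ones read 6.39 against 6.40 and 5.16 against 5.11. The LATS2 difference was thus seen on the brighter probe sets and not on those at or near background, and with all 4 probe sets averaged it was 0.34. LATS1 was lower on its brightest probe set, at 9.10 against 9.35, a difference of -0.25 or 1.19-fold. The other 3 LATS1 probe sets were below background on both arrays, and 2 of them had identical values on both. Identical values occurred in 14.6% of all probe sets.

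The transcripts of the proteins that bind YAP in the cytoplasm were close to equal on their brightest probe sets. AMOTL2, an angiomotin of cell junctions, read 11.54 against 11.39 on its only probe set, a difference of 0.15. PTPN14, a non-receptor tyrosine phosphatase, read 11.14 against 11.09 on its brightest probe set, a difference of 0.05. Its next probe sets read 8.44 against 8.37 and 7.68 against 7.23, and 1 below the filter read 5.95 against 6.23. No probe set of AMOTL2 or PTPN14 differed by 1.5-fold. LATS2, AMOTL2 and PTPN14 are all targets as well as inhibitors of YAP, and of these LATS2 alone passed 1.5-fold.

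Over the 23 member probe sets past the filter, 20 were higher in overexpression, 10 of them by 1.5-fold or more, and none was lower by that much. Of the 21144 single-symbol probe sets past the filter, 46.6% were higher, 4.89% were higher by 1.5-fold or more and 3.89% were lower by that much. Probe sets of 1 gene share its RNA and are not independent of each other. The 3 that were lower belonged to TEAD1, LATS1 and LATS2, at -0.09, -0.25 and -0.01.

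**Figure D3:**
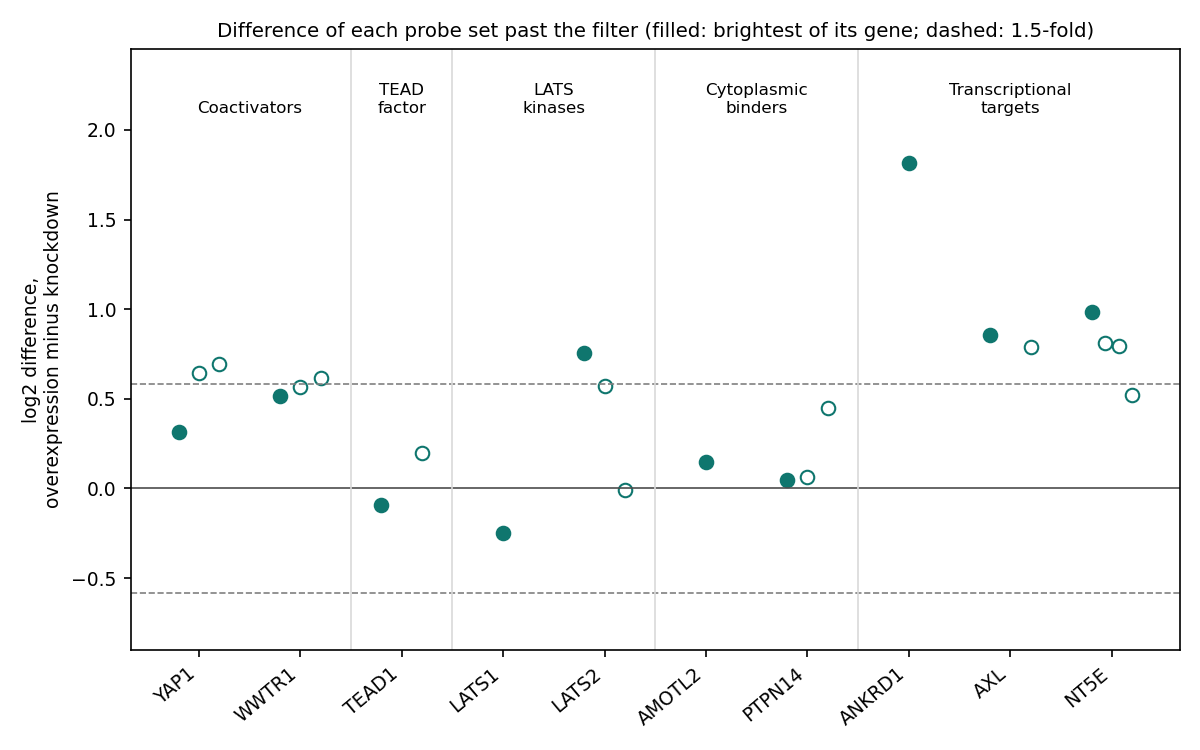
Difference between the arrays (vertical axis, log2 units, overexpression minus knockdown) for the 23 member probe sets past the filter, by gene and role. Filled points are the brightest probe set of each gene, open points the others, and dashed lines mark 1.5-fold. All points of ANKRD1, AXL, NT5E, YAP1 and WWTR1 lie above 0, and those of LATS2 run from -0.01 to 0.76.

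Other genes of the pathway were read from lists that were likewise chosen with results of these arrays known. The upstream kinases and scaffolds, which act on LATS, differed in both directions, from -0.58 to 0.62. Of 17 past the filter, 1 was higher and none lower by 1.5-fold or more, near the shares of 4.97% and 4.15% over all genes, and their median was 0.03. The gene past 1.5-fold was RASSF1, a scaffold that binds the MST kinases, at 10.31 against 9.69. The TAO kinases, which phosphorylate the MST kinases, included the lowest values, with TAOK3 at 7.19 against 7.77, which is 1.49-fold lower, and TAOK1 at 10.79 against 11.25. NF2, which encodes merlin, read 11.09 against 11.03 on its brightest probe set, although 3 of the 5 NF2 probe sets that passed exceeded 1.5-fold, and WWC1, which encodes the scaffold KIBRA, read 11.50 against 11.46. The MST kinases STK3 and STK4 differed by -0.06 and -0.12. Of the angiomotins outside the member list, AMOTL1 read 9.09 against 9.32, a difference of -0.22, and AMOT was below background on both arrays.

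None of the 4 nuclear partners past the filter differed by 1.5-fold. All 4 were above 0, against 45.6% of all genes past the filter, with a median of 0.38. TEAD4 read 10.25 against 9.76, a difference of 0.49, and VGLL4, which competes with YAP for TEAD, read 11.07 against 10.75, a difference of 0.32. TEAD2 differed by 0.44 and TEAD3 by 0.11, which is under the median absolute difference of all genes, 0.15. VGLL1, VGLL2 and VGLL3 did not pass the filter.

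Of 12 regulators of YAP turnover and localisation, 1 was higher and 1 lower by 1.5-fold or more, with a median of -0.14. These counts of 1 are near the 4.97% and 4.15% over all genes. WTIP, an Ajuba-family LIM protein that inhibits LATS, read 8.62 against 7.99. SCRIB, a polarity protein that recruits Hippo kinases to the membrane, read 8.19 against 8.83. The 14-3-3 genes YWHAB and YWHAZ, whose products retain phosphorylated YAP, differed by -0.12 and -0.15.

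The published signature holds 16 targets besides the 6 that are members, and 12 of these passed the filter. Of the 12, 1 was higher and 1 lower by 1.5-fold or more, beside 4.97% and 4.15% of all genes past the filter, so these counts of 1 are near the background. Above 0 were 8 of the 12, against 45.6% of all genes past the filter, and the median of the 12 was 0.18. CRIM1, a transmembrane regulator of BMP signalling, read 10.23 against 9.59, and all 3 of its probe sets were at least 1.5-fold higher. F3, tissue factor, read 7.85 against 9.01, which is 2.22-fold lower. Of the bright targets, IGFBP3 differed by 0.14, at 13.42 against 13.28, and CCN1 by -0.12, at 12.27 against 12.39. CCN2, whose upstream sequence holds 3 matches of the TEAD element, read 9.59 against 9.04, a difference of 0.55 that is short of 1.5-fold. On their brightest probe sets ANKRD1, NT5E and AXL each differed by more than CRIM1, the highest of the 12. Another CRIM1 probe set differed by 0.98, more than either AXL probe set and level with the brightest of NT5E. ANKRD1, NT5E and AXL had been put forward with these results in view.

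Of 6 further genes described as YAP targets, 2 were higher and none lower by 1.5-fold or more, with a median of 0.02. Of all genes past the filter, 4.97% were higher and 4.15% lower by that much. THBS1, the matrix glycoprotein thrombospondin 1, read 11.22 against 9.27, and CAVIN2, a caveolar coat protein, read 7.25 against 6.22. CAVIN2 passed the filter of 6.40 on the overexpression array alone, so its place in this count rests on the array where it was high. BIRC5, which encodes survivin, differed by 0.04 and MYC by -0.34. Of 5 genes that carry adhesion signals toward the pathway 1 was higher by 1.5-fold or more, beside 4.97% of all genes past the filter. All 5 were above 0, against 45.6% of all genes, but PTK2 at 0.10 and SRC at 0.08 were under 0.15, the median absolute difference of all genes past the filter. The integrin subunit ITGB5 read 12.46 against 10.87 and all 4 of its probe sets were at least 1.5-fold higher, whereas ITGB1 differed by 0.21 and ITGA3 by 0.33. THBS1 and ITGB5 are also genes of the matrix and integrin groups, and their values are given here only beside the pathway.

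**Figure D4:**
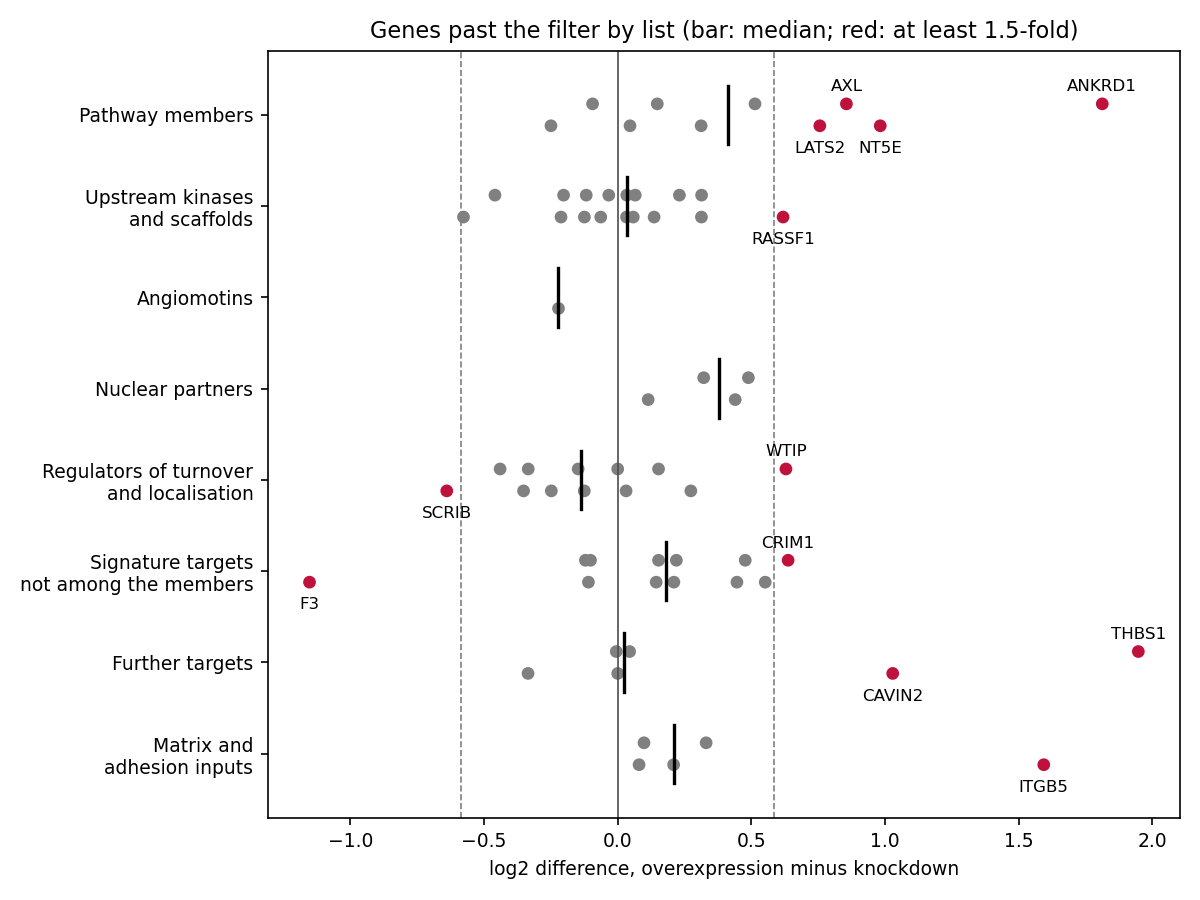
Difference between the arrays (horizontal axis, log2 units, overexpression minus knockdown) for genes past the filter in each list, on the brightest probe set of each gene. Black bars are list medians, red points genes at least 1.5-fold apart and dashed lines 1.5-fold. The median of the members is 0.41, the nuclear partners lie at 0.38 and the upstream kinases and scaffolds at 0.03, and F3 and SCRIB are the only genes shown beyond the lower line.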

How the data were processed

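Total RNA of both HEC1A cultures was labelled with biotin and hybridized to 1 array each, per the labels' protocols. The deposited table holds 1 value per probe set and array, taken to be on a log2 scale from its range of 2.01 to 14.72. The submitters' processing notes name Partek 6.6, and for the background correction, normalization and summarization no method is given in the labels or the table. The array medians were 6.02 and 6.01, so a shift common to most genes may have been removed before deposit. Values were used as deposited.

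Probe sets were named from the platform annotation, in which 41097 of 54675 had 1 symbol, and 41043 of these matched the RefSeq gene table of GRCh38.p14. The filter, 6.40, kept 12061 genes. The background level is the brightest of 27 Bacillus subtilis control probe sets. The 18 hybridization controls differed by at most 0.10. No test was run, since each group has 1 array. The members, lists, 1.5-fold threshold and alternatives were chosen with earlier results of these data known. Named were every member and its probe sets, EMP2, and in each list the genes at least 1.5-fold apart and the 2 brightest others. Further genes named (CCN2, STK3, STK4, TAOK1, TAOK3, MAP4K5, PTK2, SRC, AMOT, TEAD2, TEAD3, VGLL1, VGLL2, VGLL3) and the level of 11 were chosen after their values were seen. The counting was tested on simulated data. Python 3.11.15, pandas 2.3.3 and numpy 2.4.6 were used.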

Additional observations from a re-analysis of the deposited data

How the results depend on the processing

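The members' differences, their median and counts, and the counts of signature targets were recomputed under 9 alternatives, covering the choice of probe set, the scaling, the filter and a floor at the background level. The other lists were not recomputed. The count of members at least 1.5-fold higher was 4 as reported and 3 or 4 under every alternative, and none was at least 1.5-fold lower in any. Which members made up the count depended on the probe set. LATS2 was below 1.5-fold with probe sets averaged (0.34) or at their median (0.28), and with the dimmest probe set past the filter it stood at -0.0075. With that probe set NT5E was 0.52, WWTR1 0.61 and YAP1 0.70, and at the median of its probe sets YAP1 was 0.64. LATS1, the lowest member, did not pass the filter with probe sets averaged or at their median, ANKRD1 did not pass a filter at the 75th percentile, and AXL has no probe set of the plain kind. The direction of TEAD1 turned with probe sets averaged (0.08), at their median (0.20) and on the dimmest (0.20). The members' median of 0.41 was 0.55 with probe sets averaged and 0.57 at their median, both over the 9 members other than LATS1, and 0.31 both with plain probe sets only and with the filter at the 75th percentile. The signature targets at least 1.5-fold higher went from 1 to 0 with plain probe sets, since CRIM1 has none of that kind. Median centring and quantile normalization changed no call of a member. No paired analysis was possible because each group has 1 array. Leaving out a replicate was not possible for the same reason.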

Other observations

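NF2, the gene of merlin, an upstream activator of LATS, differed by 0.06 on its brightest probe set, but 4 dimmer NF2 probe sets were higher in overexpression. They read 8.42 against 8.01, 8.47 against 7.80, 7.77 against 7.11 and 6.71 against 6.11, and 3 of these passed 1.5-fold. ITGB1 showed the same kind of spread, with differences of 0.21, 0.53 and 0.64 on the 3 of its 7 probe sets that passed the filter, the smallest on the brightest, as for YAP1. MAP4K5, a kinase that can phosphorylate LATS, had probe sets at 0.23, -0.21 and 0.72. Where each of these probe sets lies in its transcript was not examined.

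The genes next to each member along its chromosome were read as a description chosen after the members' values were seen. For each member, the 10 genes past the filter on either side were taken from the RefSeq gene order. The medians of these 20 neighbours ran from -0.20 (PTPN14) to 0.10 (TEAD1). For the members at least 1.5-fold higher, the neighbours' medians were -0.04 for LATS2, 0.03 for ANKRD1, 0.08 for AXL and -0.08 for NT5E. At least 1.5-fold higher were 1 or 2 of each 20 neighbours, beside 4.97% of all genes past the filter. Single neighbours differed more. Those named here were the nearest genes past the filter on each side, so genes that did not pass it may lie between. For NT5E, LINC02535 was at 0.99, close to NT5E itself at 0.98, with SNX14 on the other side at -0.02. For ANKRD1, PCGF5 was at -1.48 and RPP30 at 0.03, and the nearest such genes of LATS2 and AXL ran from -0.08 to 0.10. For YAP1 the median was 0.00, with 10 of 20 above 0, while ARHGAP42 and BIRC2 were at 0.77 and 0.40. For WWTR1 the median was -0.12, with TM4SF4 at -0.51 and COMMD2 at -0.20.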
